A study of Homo sapiens with 4 samples.

Results

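The genes described here are 34 genes of cholesterol and fatty acid synthesis, chosen by name and with earlier results of these data known. They are 4 regulators of the SREBP pathway, 1 sterol transporter, 7 enzymes of the mevalonate pathway and 9 enzymes from squalene to cholesterol. The rest are 8 genes of fatty acid synthesis and desaturation, and 5 genes of LXR signaling and sterol efflux. The 34 genes were followed by RNA sequencing in Caco-2 cells, a human colorectal adenocarcinoma line. When grown to confluence, this line takes on features of absorptive enterocytes. The cells, labelled WT, were cultured in transwells for 15 days. Then 60 ng/ml of IFNγ was added to the basal side for 3 h (2 libraries), and the controls were unstimulated cells at 0 h (2 libraries). Of the 34 genes, 33 were matched to a row of the count table (ACACA, an acetyl-CoA carboxylase, was not), out of 37515 genes listed. A total of 32 had enough counts to be tested among 14820 genes. The exception was ABCG1, a cholesterol exporter, whose counts were 0 and 1 in the unstimulated libraries and 3 and 0 after IFNγ.

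Cholesterol is built from acetyl-CoA through mevalonate, farnesyl pyrophosphate and squalene, and fatty acids are built from the same acetyl-CoA. The genes of both routes are switched on by the SREBP transcription factors, which SCAP escorts from the endoplasmic reticulum to the Golgi for cleavage when sterols are low, and which INSIG proteins hold back when sterols are high. The liver X receptors (LXRs) sense oxysterols and switch on cholesterol export in the opposite situation. Enterocytes use both systems because they take up dietary cholesterol and fat and export them as lipoproteins.

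The libraries held 7171455 to 10365346 counts, and 1 CPM (a count scaled to the library's size) corresponded to between 7.138 and 10.28 counts. All 10 epithelial markers had counts in every library, from 102 to 18659. They summed to 7024 to 7674 CPM in the unstimulated libraries and 8444 to 8965 CPM after IFNγ. Of the 10, 4 rose (KRT8, KRT18, CDX2 and ALPI) and 1 fell (SI), where 9.02% of all tested genes rose and 11.0% fell. The counts of SI were 4306 and 3134 in the unstimulated libraries and 2651 and 984 after IFNγ. The 5 leukocyte markers summed to 6.04 to 8.27 CPM and 9.53 to 11.3 CPM, with PTPRC at 2 counts or fewer. The 4 fibroblast and endothelial markers with a row summed to 94.8 to 186 CPM and 129.8 to 175 CPM, nearly all of it COL1A1, while its partner chain COL1A2 had at most 1 count. The part of these markers in the results below was not tested. Of 12 genes known to be induced by IFNγ, 11 were tested, and 10 of them rose. IRF1, a transcription factor of the IFNγ response, went from 19.3 and 20.2 CPM to 1201 and 1085 CPM. Since the controls were taken at 0 h, IFNγ and the 3 h that passed cannot be told apart. The labels do not say whether the 2 libraries of a group came from separate cultures, so the p-values measure only the spread between these libraries. Fewer cells using a gene and less RNA of it per cell cannot be told apart in bulk RNA.

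Cholesterol synthesis genes were lower after IFNγ, together with 2 genes of fatty acid synthesis. Of the 32 tested genes, 14 fell and none rose at an adjusted p under 0.05 (edgeR's quasi-likelihood test with Benjamini-Hochberg adjustment over all tested genes). The 14 lower genes are 43.8% of those tested, and over all 14820 genes 11.0% fell and 9.02% rose. At an unadjusted p under 0.05, edgeR gave 21 of the 32 genes as lower (65.6%, against 18.8% of all tested genes) and 0 as higher (against 16.6%). DESeq2 also gave 21 lower and 0 higher, against 14.4% and 11.8% of all tested genes. The fall exceeded 1 on the log2 scale for 6 of the 32 genes (18.8%), compared with 4.4% of all tested genes. Both IFNγ libraries lay below both unstimulated libraries for 23 of the 32 genes (71.9%, against 30.8% of all tested genes) and above both for 2 of them, TM7SF2 and NR1H2 (6.25%, against 31.6%). The median log2 fold change was -0.52 over the 32 genes, with a range from -1.41 to 0.31, and -0.01 over all tested genes. The genes were chosen with earlier results of these data known, so these shares and medians describe them and are not independent support.

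**Figure D1:**
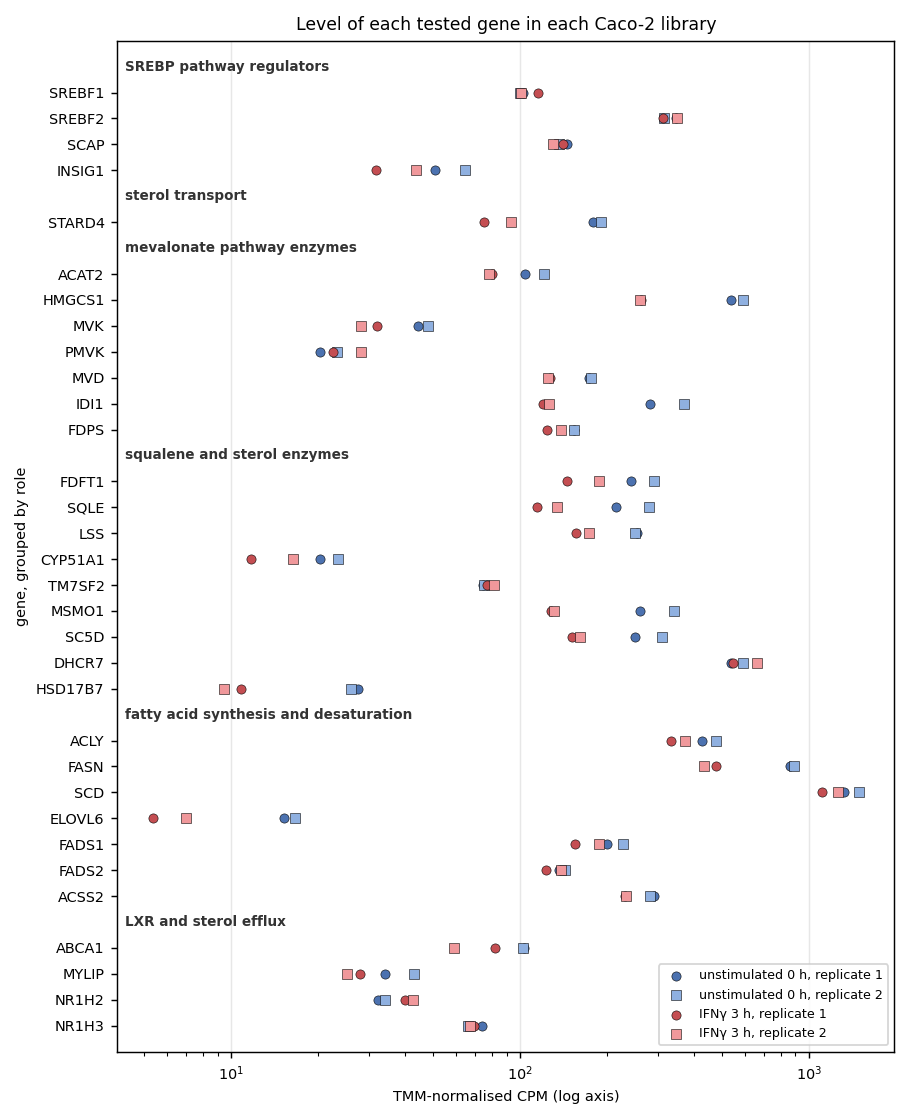
Each point is the TMM-normalised CPM (log axis) of 1 tested gene in 1 library, with genes grouped by role, unstimulated libraries in blue and IFNγ libraries in red. HMGCS1, IDI1, MSMO1, HSD17B7, FASN and ELOVL6 show a gap between the colors, whereas the points of SREBF2, SCAP and DHCR7 overlap.

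Among the upstream enzymes, which convert acetyl-CoA to farnesyl pyrophosphate, 5 of 7 fell and 2 did not pass the test, and the median log2 fold change was -0.51. HMGCS1, the synthase that makes HMG-CoA, was present at 539 and 592 CPM in the unstimulated libraries and at 264 and 260.2 CPM after IFNγ. Its log2 fold change was -1.11 (SE 0.110, adjusted p = 0.00153), 2.16-fold lower. IDI1, the isomerase that turns isopentenyl pyrophosphate into dimethylallyl pyrophosphate, was at 283 and 372 CPM before and at 120.4 and 126 CPM after. The unstimulated libraries of IDI1 differed more from each other than those of HMGCS1, and even the lower of them was well above either IFNγ library. With a log2 fold change of -1.41 (SE 0.151, adjusted p = 0.00189), IDI1 had the lowest value of all 32 genes.

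The other 3 enzymes that fell in this stretch changed less. ACAT2, the thiolase that makes acetoacetyl-CoA, was at 104 and 121 CPM in the unstimulated libraries and at 80.3 and 78.2 CPM after IFNγ (log2 fold change -0.51, SE 0.125, adjusted p = 0.0298). MVK, which phosphorylates mevalonate, was at 44.3 and 48.2 CPM and then at 32.0 and 28.1 CPM (log2 fold change -0.62, SE 0.143, adjusted p = 0.0236). MVD, the decarboxylase that makes isopentenyl pyrophosphate, was at 174 and 177 CPM and then at 127 and 125 CPM (log2 fold change -0.47, SE 0.107, adjusted p = 0.0218). For these genes the groups did not overlap, and the libraries of a group lay close together. All 3 were called on a narrow margin: without unstimulated replicate 2 the adjusted p was 0.144 for ACAT2, 0.0763 for MVK and 0.0749 for MVD, and without unstimulated replicate 1 it was 0.0526 for MVK and 0.0752 for MVD. ACAT2 shares exonic sequence with SOD2 and TCP1 on the annotation used, and how the counting treated such reads is not given in the sources used here. PMVK, the second mevalonate kinase, had a value of 0.22 (adjusted p = 0.419), and FDPS, which makes farnesyl pyrophosphate, one of -0.23 (adjusted p = 0.201), both on the log2 scale.

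In the second stretch, from farnesyl pyrophosphate through squalene to cholesterol, 6 of 9 enzymes fell, 3 did not pass the test, and the median log2 fold change was -0.68. FDFT1, squalene synthase, was at 243 and 292 CPM in the unstimulated libraries and at 146 and 188 CPM after IFNγ (log2 fold change -0.68, SE 0.158, adjusted p = 0.0241). SQLE, the epoxidase that acts next and is one of the rate-limiting enzymes of the route, was at 215 and 280.1 CPM and then at 114 and 134 CPM (log2 fold change -0.99, SE 0.160, adjusted p = 0.00651). LSS, which closes the rings to give lanosterol, was at 255 and 251 CPM and then at 156 and 173 CPM (log2 fold change -0.62, SE 0.113, adjusted p = 0.0101). Each of these 3 consecutive steps was lower in both IFNγ libraries than in either control. The call for FDFT1 was the least firm, with an adjusted p of 0.0567 without unstimulated replicate 2 and 0.0514 without IFNγ replicate 1.

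Of the 6 enzymes that turn lanosterol into cholesterol, 3 fell. MSMO1, which oxidizes methyl groups of the sterol, was at 261 and 341 CPM in the unstimulated libraries and at 128 and 131 CPM after IFNγ (log2 fold change -1.21, SE 0.148, adjusted p = 0.00298). HSD17B7, the ketosteroid reductase that completes the removal of those groups, was at 27.6 and 25.9 CPM and then at 10.8 and 9.41 CPM (log2 fold change -1.40, SE 0.167, adjusted p = 0.00269). SC5D, the lathosterol desaturase, was at 249 and 310.5 CPM and then at 152 and 162 CPM (log2 fold change -0.84, SE 0.137, adjusted p = 0.00702), a call lost with the GC correction described below (-0.20, adjusted p = 0.406). HSD17B7 had tighter controls than the others and was 2.63-fold lower, in reads that a pseudogene could share: the counts of HSD17B7P2 were 117 and 48 at 0 h and 26 and 8 after IFNγ. CYP51A1, the lanosterol demethylase, had a log2 fold change of -0.65 that missed the threshold (adjusted p = 0.066). Both of its IFNγ libraries lay below both controls, as for 30.8% of all tested genes. With the GC correction CYP51A1 was at -0.37 (adjusted p = 0.269). The exons of CYP51A1 overlap those of AKAP9, and 2 of its pseudogenes had 18 to 77 counts a library.

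DHCR7, the reductase that yields cholesterol itself, stood at 538 and 593 CPM in the unstimulated libraries and at 548 and 664 CPM after IFNγ. The groups overlapped, and the log2 fold change was 0.10, with a 95% interval from -0.20 to 0.40 (adjusted p = 0.623). TM7SF2, a sterol reductase that acts earlier, was at 74.4 and 75.0 CPM and then at 77.1 and 81.0 CPM (log2 fold change 0.08, interval from -0.19 to 0.35, adjusted p = 0.653). The intervals of DHCR7 and TM7SF2 do not reach the size of the fall of MSMO1, HSD17B7, SQLE or LSS, though the differences between these genes were not tested. The sign of both values depended on a correction for GC content described below, with which they were -0.12 and -0.13.

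STARD4, a soluble protein that carries sterols between membranes, was at 179 and 191 CPM in the unstimulated libraries and at 75.4 and 93.3 CPM after IFNγ. The groups lay far apart, and the log2 fold change was -1.14 (SE 0.138, adjusted p = 0.00288). The call was lost when the dependence of fold changes on GC content, described below, was removed (log2 fold change -0.41, adjusted p = 0.129).

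None of the 4 listed regulators of the SREBP pathway passed the edgeR test, and at an unadjusted p under 0.05 INSIG1 alone did. A further list of 20 genes of SREBP control and sterol synthesis is described below. Of these, 3 fell, INSIG2 among them, and 5 rose, where 11.0% of all tested genes fell and 9.02% rose. SREBF1, which encodes the SREBP forms that favor fatty acid genes, was at 102 and 100.2 CPM in the unstimulated libraries and at 115 and 101 CPM after IFNγ (log2 fold change 0.10, 95% interval from -0.19 to 0.38, adjusted p = 0.617). SREBF2, which encodes the form that favors cholesterol genes, was at 347 and 317 CPM and then at 313 and 351 CPM (log2 fold change -0.0016, interval from -0.28 to 0.27, adjusted p = 0.993). SCAP was at 146 and 137 CPM and then at 141 and 131 CPM (log2 fold change -0.06, interval from -0.32 to 0.21, adjusted p = 0.762). For all 3 of these genes the libraries of the groups overlapped, and the sign of SREBF1 and SREBF2 changed with the scaling or correction used. The exception was INSIG1, a retention protein that is also an SREBP target: 50.8 and 64.4 CPM in the unstimulated libraries and 31.8 and 43.5 CPM after IFNγ. Its groups did not overlap, and its log2 fold change of -0.62 (interval from -1.07 to -0.16) missed the threshold with edgeR (adjusted p = 0.0628) and passed it with DESeq2 (adjusted p = 0.0418). With the GC trend removed, as described below, INSIG1 was at -0.53 (adjusted p = 0.0902). SREBP activity is set by cleavage of the protein, which mRNA levels do not measure.

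**Figure D2:**
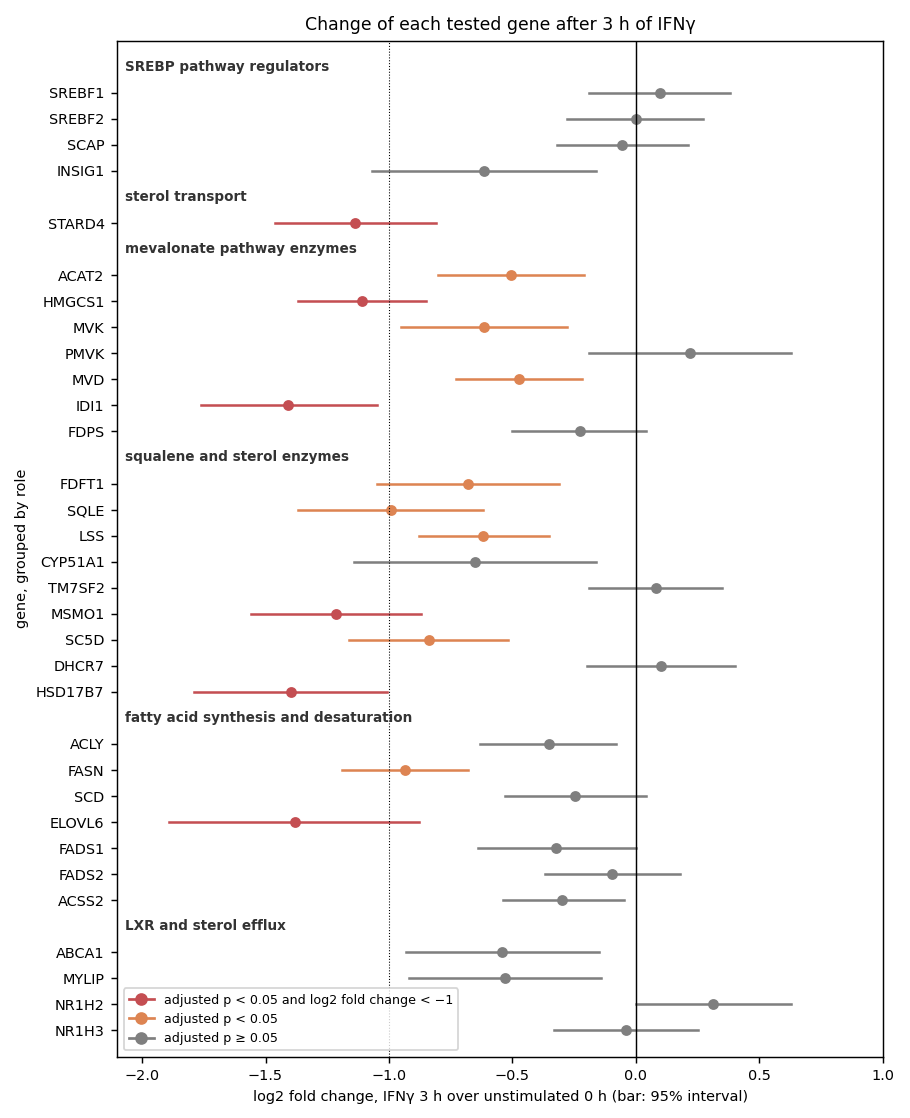
Points give the log2 fold change of each tested gene after 3 h of IFNγ over unstimulated cells, bars the 95% interval, and the color whether the adjusted p was under 0.05 (orange) and the log2 fold change also below -1 (red). The 6 red genes are STARD4, HMGCS1, IDI1, MSMO1, HSD17B7 and ELOVL6, and no gene to the right of 0 passed the test.

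In fatty acid synthesis and desaturation, 2 of 7 tested genes fell, where 11.0% of all tested genes did. All 7 had a negative log2 fold change, with a median of -0.32, against -0.01 over all tested genes. FASN, the synthase that builds palmitate, was at 862 and 887 CPM in the unstimulated libraries and at 478 and 435 CPM after IFNγ (log2 fold change -0.94, SE 0.109, adjusted p = 0.00245). ELOVL6, the elongase that extends palmitate to stearate, was at 15.2 and 16.7 CPM and then at 5.35 and 6.96 CPM (log2 fold change -1.38, SE 0.216, adjusted p = 0.00601). The fall of FASN was thus seen at a high level and that of ELOVL6 at a low one, with no overlap of the groups in either case.

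SCD, the desaturase that converts stearate to oleate, was at 1322 and 1495 CPM in the unstimulated libraries and at 1114 and 1263 CPM after IFNγ. The highest IFNγ library was just below the lowest control, and the log2 fold change was -0.25, with an interval from -0.53 to 0.04 (adjusted p = 0.191). ACLY and ACSS2, which supply cytosolic acetyl-CoA from citrate and from acetate, had log2 fold changes of -0.35 (adjusted p = 0.075) and -0.30 (adjusted p = 0.0858). The desaturases of polyunsaturated fatty acids FADS1 and FADS2, neighboring genes whose annotated exons overlap, had values of -0.32 (adjusted p = 0.14) and -0.10 (adjusted p = 0.604). In the main fit only FASN and ELOVL6 passed at the adjusted threshold. At an unadjusted p under 0.05 in edgeR, ACLY, ACSS2 and FADS1 were lower too. With the GC trend removed, as described below, ACSS2 passed (-0.50, adjusted p = 0.024) and ACLY was at -0.47 (adjusted p = 0.0543). The difference between these genes was not tested.

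None of the 4 tested genes of LXR signaling and efflux passed the edgeR test, whereas ABCA1 and MYLIP did at an unadjusted p under 0.05. Their median log2 fold change was -0.28. ABCA1, the LXR target that exports cholesterol to apolipoprotein acceptors, was at 103 and 103 CPM in the unstimulated libraries and at 82.1 and 58.9 CPM after IFNγ. The IFNγ libraries of ABCA1 differed from each other by about as much as the higher one differed from the controls, and the log2 fold change was -0.54, with an interval from -0.93 to -0.15. The adjusted p was 0.0595 with edgeR and 0.0313 with DESeq2. With the GC trend removed, as described below, ABCA1 was at -0.27 (adjusted p = 0.224). MYLIP, an LXR target that encodes a ubiquitin ligase, was at 34.1 and 43.0 CPM and then at 27.9 and 25.2 CPM (log2 fold change -0.53, adjusted p = 0.0624). The receptors NR1H2 (LXRβ) and NR1H3 (LXRα) had log2 fold changes of 0.31 (adjusted p = 0.146) and -0.04 (adjusted p = 0.846), the second with a sign that changed under another scaling.

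Scaled by transcript length, SCD was the most abundant of the 32 messages in unstimulated cells, at 269 CPM per kilobase, followed by DHCR7 at 215, MSMO1 at 135, FDFT1 at 131 and IDI1 at 119.5 CPM per kilobase. After IFNγ the length-scaled level was 227 for SCD and 231 for DHCR7, whereas MSMO1 and IDI1 were at 58.2 and 45.0 CPM per kilobase. SCD and DHCR7 differed by less than the spread between their libraries after IFNγ, so their order there is not resolved. The lowest was ELOVL6, at 2.42 CPM per kilobase before and 0.937 after.

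**Figure D3:**
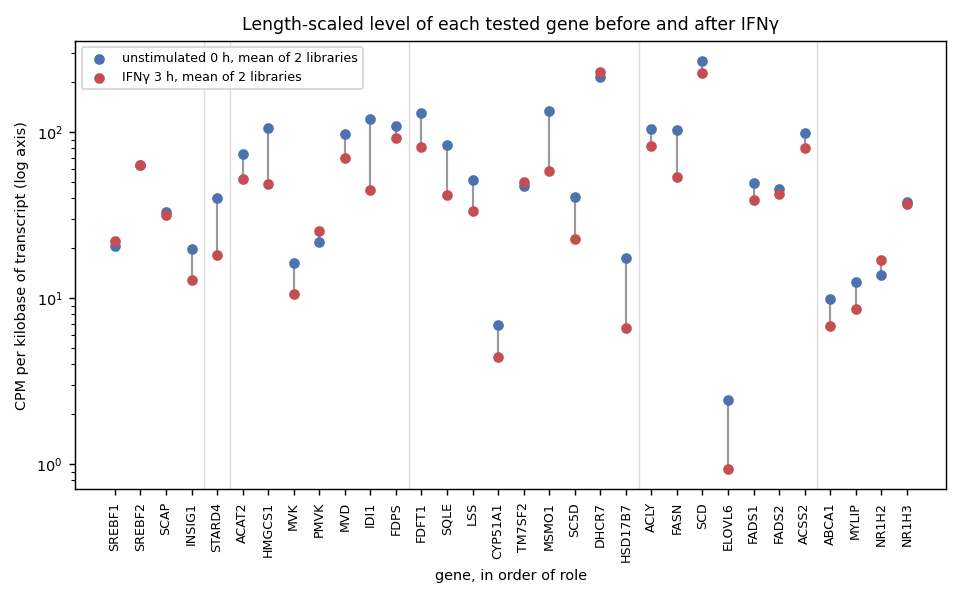
For each tested gene, the mean CPM per kilobase of transcript (log axis) of the 2 unstimulated libraries (blue) and of the 2 IFNγ libraries (red) is joined by a line. SCD and DHCR7 are the highest messages in both conditions, and ELOVL6 is the lowest, at 2.42 and 0.937 CPM per kilobase.

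Fold changes in these libraries depended on base composition. Across the 14518 tested genes with a known GC content, Spearman's rho between GC content and log2 fold change was 0.44, a description across genes that share the same 4 libraries. The 14 lower genes had a median GC content of 46.0%, and the 18 genes not past the test one of 56.5%. Among genes with less than 50% GC, 10 of 16 listed genes (62.5%) and 18.2% of all tested genes fell, with median log2 fold changes of -0.76 and -0.20. At 50% GC or more, 4 of 16 listed genes (25.0%) and 2.56% of all genes fell, with medians of -0.08 and 0.19. The 4 GC-rich genes that fell were MVK, MVD, LSS and FASN.

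When the dependence on GC content and length was taken out of the counts, 13 of the 32 genes fell. Of the 14 genes, 12 were still past the threshold. STARD4 and SC5D, as given above, were no longer past the threshold, and ACSS2 (-0.50, adjusted p = 0.024) was. The fall of HMGCS1 became smaller (-0.64, adjusted p = 0.0104), as did those of IDI1 (-0.95, adjusted p = 0.00277) and MSMO1 (-0.76, adjusted p = 0.00631). Those of HSD17B7 (-1.39, adjusted p = 0.00111) and SQLE (-0.98, adjusted p = 0.00432) hardly moved, and that of FASN became larger (-1.12, adjusted p = 0.00229). The genes beyond 1 on the log2 scale were then HSD17B7, FASN and ELOVL6 (-1.01, adjusted p = 0.0187). Whether base composition accounts for part of each change was not tested.

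**Figure D4:**
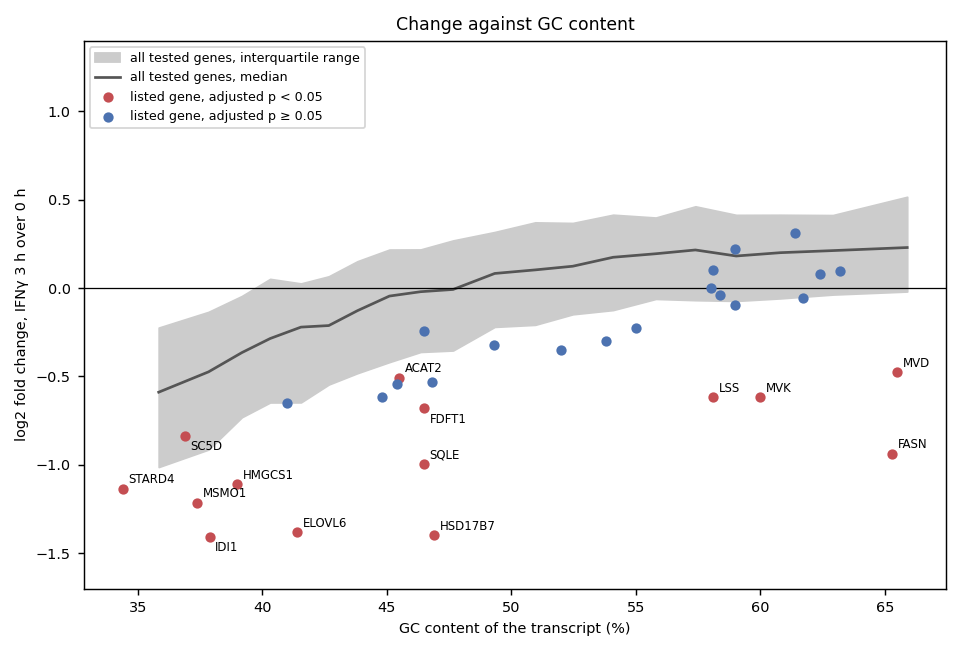
Points are the tested genes by GC content of the transcript (%) and log2 fold change, red where the adjusted p was under 0.05, over the median (line) and the interquartile range (band) of all tested genes in bins of GC content. The line rises with GC content, and LSS, MVK, MVD and FASN lie below the band on its GC-rich side.

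The promoters of 3 of the genes that fell with the smallest p-values are shown because sterol genes are known to be read through short elements close to the start, bound by SREBP (SRE), NF-Y and Sp factors (GC box). They are from RefSeq on GRCh38.p14 and cover the 250 bases before the annotated start, 5′ to 3′ on the gene's strand, at chr5:43313413-43313662 (minus strand) for HMGCS1, chr1:162790452-162790701 (plus strand) for HSD17B7 and chr5:111512536-111512785 (minus strand) for STARD4. Capitals mark matches on either strand to CCAAT (NF-Y) and GGGCGG (GC box).
HMGCS1: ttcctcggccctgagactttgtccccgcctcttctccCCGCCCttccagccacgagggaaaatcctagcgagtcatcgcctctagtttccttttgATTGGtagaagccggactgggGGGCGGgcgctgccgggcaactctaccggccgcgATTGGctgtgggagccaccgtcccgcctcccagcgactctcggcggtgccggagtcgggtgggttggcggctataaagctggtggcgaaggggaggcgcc
HSD17B7: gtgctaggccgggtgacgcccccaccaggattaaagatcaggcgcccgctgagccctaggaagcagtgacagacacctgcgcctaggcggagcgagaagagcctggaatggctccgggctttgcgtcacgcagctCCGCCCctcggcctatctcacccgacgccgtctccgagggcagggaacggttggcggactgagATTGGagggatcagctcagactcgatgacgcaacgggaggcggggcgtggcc
STARD4: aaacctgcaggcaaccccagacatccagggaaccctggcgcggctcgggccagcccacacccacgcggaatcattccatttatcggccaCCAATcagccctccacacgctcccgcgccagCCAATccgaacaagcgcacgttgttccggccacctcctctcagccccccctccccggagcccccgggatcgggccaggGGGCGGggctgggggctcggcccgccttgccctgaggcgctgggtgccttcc
HMGCS1 had 2 CCAAT boxes in the reverse orientation, beginning 155 and 100 bases before the start, and STARD4 had 2 in the forward orientation, beginning 161 and 130 bases before it. HSD17B7 had 1 such box, beginning 52 bases before the start. For IDI1 the RefSeq start was not found in any of the 6 transcripts of the GENCODE annotation used here, and its sequence is not shown.

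Promoters were at hand for 29 of the 34 genes and for 10 of the 14 that fell. FASN, ACAT2, FDFT1 and SQLE were not analysed here in this respect. CCAAT occurred in 17 of the 29 (58.6%) and in 8 of the 10 lower genes (80.0%), against 35.1% of the 10505 promoters of tested genes. GGGCGG occurred in 27 of the 29 (93.1%) and in all 10 of the lower genes, against 67.0%. These counts include IDI1, whose start was not found in the annotation used here, with 0 CCAAT boxes and 3 GC boxes. The SRE letters TCACNCCAC were found in 1 of the 29 promoters, that of SREBF2, as TCACCCCAC from 133 to 125 bases before the start, and in 0.904% of those of tested genes. The letters TTCNNNGAA of the GAS element, through which IFNγ acts on its target genes, were found in 0 of the 29 and in 5.56% of those of tested genes. These are matches of letters in a short window and were not tested against the fold changes.

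Other genes of the same pathways were followed from lists set beside the 34, and their counts stand against the 9.02% of all tested genes that rose and the 11.0% that fell. Of 20 further genes of SREBP control and sterol synthesis, all tested, 5 rose, 3 fell and 12 did not pass, with a median log2 fold change of 0.13. INSIG2, which like INSIG1 holds SCAP in the endoplasmic reticulum, was at 153 and 156 CPM in the unstimulated libraries and at 59.5 and 57.3 CPM after IFNγ (log2 fold change -1.40, SE 0.113, adjusted p = 0.000859). With the GC trend removed, INSIG2 kept its call (log2 fold change -0.83, adjusted p = 0.00311). TRIB1, a pseudokinase linked to lipogenesis, rose from 13.9 and 18.1 CPM to 63.9 and 81.5 CPM (log2 fold change 2.19, SE 0.192, adjusted p = 0.00117).

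Of 23 genes of cholesterol uptake, trafficking, esterification and oxysterol metabolism, 22 had a row and 17 were tested, of which 2 rose and 3 fell (median log2 fold change -0.01). NPC1, which moves cholesterol out of lysosomes, fell by 0.62 on the log2 scale (adjusted p = 0.0117). STARD3, a sterol tether of late endosomes, and CYP27A1, a mitochondrial sterol hydroxylase, rose by 0.59 (adjusted p = 0.0185) and 0.42 (adjusted p = 0.0345) on the log2 scale, and neither kept its call with the GC trend removed (adjusted p = 0.109 and 0.287).

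Of 31 other genes of fatty acid, triglyceride and phospholipid synthesis, 30 were tested, 3 rose, 5 fell and 22 did not pass (median log2 fold change -0.08). ACSL3, which activates fatty acids with CoA at lipid droplets, was at 339.7 and 409 CPM in the unstimulated libraries and at 148 and 144 CPM after IFNγ (log2 fold change -1.36, SE 0.129, adjusted p = 0.00138). LPIN1, a phosphatidate phosphatase, fell by 0.92 on the log2 scale (adjusted p = 0.00481), and ACSL4, the acyl-CoA synthetase that prefers arachidonate, fell by 1.06 (adjusted p = 0.00557). AGPAT2, an acyltransferase of triglyceride synthesis, rose by 0.69 on the log2 scale (adjusted p = 0.00545). With the GC trend removed ACSL4 lost its call (adjusted p = 0.106), and the other 3 kept theirs.

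The libraries of a group differed in one direction for most of the genes. Unstimulated replicate 2 was above unstimulated replicate 1 for 24 of the 32 tested genes and for 12 of the 14 that fell. Over all tested genes it was above for 8284 of 14820. The median log2 ratio was 0.13 over the 32 genes and 0.04 over all tested genes. Among the lower genes IDI1, SQLE and MSMO1 differed most between these libraries. Between the IFNγ libraries, replicate 2 was above replicate 1 for 21 of the 32 genes, with a median log2 ratio of 0.09. Over all tested genes it was above for 7432 of 14820, with a median of 0.0. Taken library by library, the median log2 ratio of the 32 genes was -0.38 and -0.34 against unstimulated replicate 1 and -0.57 and -0.53 against unstimulated replicate 2, so it was negative in each of the 4 pairings. When unstimulated replicate 2 was left out, 10 genes fell.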

How the data were processed

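The 4 Caco-2 libraries (2 per group) were made from 1 ug of RNA with a TruSeq RNA kit. The deposited table holds raw read counts per Ensembl gene; the submitters' processing notes name HISAT 0.5.1 and HTSeq 0.6.1p1, and the genome build, annotation and strand setting are not given in the sources used here. No normalization by the authors is present in the counts. Library totals ran from 7171455 to 10365346, which sets the counting precision, and every row named a gene.

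Groups came from the sample titles. Symbols, GC content, transcript length and overlaps came from GENCODE 44 mapped to GRCh37 (96.5% of genes had a symbol), and no row could be paired with ACACA. Genes were filtered with filterByExpr defaults, scaled by TMM and tested with edgeR 4.0.16 (R 4.3.3) by the quasi-likelihood method, condition only, with Benjamini-Hochberg adjustment over 14820 genes. CPM values are TMM-normalised, the SE is the log2 fold change divided by the root of F, and intervals are 95%. The script was tested on simulated data. The 34 genes and the further lists were chosen with earlier results of these data known. Lower genes and a preset set of others are given in full, and up to 4 genes by smallest p from each further list. Some genes of these lists are not reported here. Promoter sequences are RefSeq's, on GRCh38.p14.

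Alternatives were DESeq2 1.42.0, other scalings and filters, removal of the GC and length trend by a loess curve (span 0.3), a block for the replicate number, an adjusted p under 0.01, and each library left out. Splitting the genes at 50% GC and keeping genes with no exon overlap were chosen after seeing the data.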

Additional observations from a re-analysis of the deposited data

How the results depend on the processing

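The number of listed genes that fell was 14 and ranged from 13 to 18 with DESeq2's size factors, upper quartile or library size scaling, DESeq2, other filters on low counts and the GC and length trend removed. It was 9 at an adjusted p under 0.01 and 6 among the 13 tested genes whose exons overlap no other gene (an alternative chosen after seeing the data). With a replicate block it was 22, and 21 with the block and the GC trend removed. Same-numbered libraries deviated together (r = 0.42 across genes), but with 2 pairs and no label saying what a number marks they are not taken as paired. No listed gene rose in any of these fits. The number beyond 1 on the log2 scale was 6, and 3 with the GC trend removed, with or without the replicate block. Leaving out each library gave 10 to 17 lower genes, 5 to 7 beyond 1, and a median log2 fold change of -0.58 to -0.40 (main value -0.52), lowest in number and size without unstimulated replicate 2.

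Of the 14 lower genes, 8 (HMGCS1, IDI1, SQLE, LSS, MSMO1, HSD17B7, FASN and ELOVL6) passed in all 13 alternative fits, and all 14 were negative in each. Signs changed for genes near 0: with the GC trend removed, and with the block added, SREBF1 was at -0.11 and -0.10, TM7SF2 at -0.13 in both and DHCR7 at -0.12 in both. SREBF2 was at 0.04 with upper quartile scaling and at 0.02 with no filter, and NR1H3 at 5.9e-05 with upper quartile scaling. With 1 library left out, SREBF1 ranged from -0.02 to 0.17, SREBF2 from -0.11 to 0.07, DHCR7 from -0.06 to 0.22 and NR1H3 from -0.11 to 0.05.

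With 2 libraries a group, a gene that did not pass is not shown to be unchanged. A group left with 1 library was assumed to vary like the other. With no filter, and without IFNγ replicate 2, the spread was estimated as equal for all genes, and p-values there rest on that assumption. Reads shared with overlapping genes (19 of 33 genes) or pseudogenes cannot be placed, and ABCG1 was too low to test.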

Other observations

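Of 27 listed genes of fatty acid oxidation and PPAR signaling, 26 had a row and 23 were tested. Of these, 5 rose and 3 fell, where 9.02% of all tested genes rose and 11.0% fell, so the number that fell was near that background. The median log2 fold change was 0.04. PPARGC1B, a coactivator of oxidative metabolism, was at 30.6 and 28.9 CPM in the unstimulated libraries and at 107 and 88.7 CPM after IFNγ (log2 fold change 1.72, SE 0.145, adjusted p = 0.000996 in edgeR's quasi-likelihood test). CPT1A, which gates the entry of fatty acids into mitochondria, was at 27.7 and 24.7 CPM and then at 45.8 and 42.4 CPM (log2 fold change 0.75, SE 0.142, adjusted p = 0.0115). PPARG, the nuclear receptor that favors lipid storage, was at 70.6 and 72.3 CPM and then at 33.7 and 41.1 CPM (log2 fold change -0.94, SE 0.143, adjusted p = 0.00552). PLIN2, which coats lipid droplets, fell by 0.68 on the log2 scale (adjusted p = 0.00647). These 4 genes kept their calls with the GC trend removed, with adjusted p from 8.06e-05 to 0.0106.

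Of 14 listed genes with which enterocytes assemble lipoproteins, 13 had a row and 12 were tested. Of these, 1 rose and 0 fell, where 9.02% of all tested genes rose and 11.0% fell. The number that rose was near that background. It was PLIN3, another droplet coat protein, which rose by 0.47 on the log2 scale (adjusted p = 0.0305, and 0.246 with the GC trend removed). The other 11 did not pass in the main fit, and the median log2 fold change was 0.12. With the GC trend removed, APOB passed (log2 fold change 0.51, adjusted p = 0.0438), against 0.09 (adjusted p = 0.771) in the main fit.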
